A study of Rattus norvegicus with 6 samples.

Results

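Neurofilament and glial intermediate filament genes were examined in the rat sciatic nerve before and after crush injury. The set named 9 genes: Nefl, Nefm, Nefh, Ina and Prph, called neuronal-type here, and Vim, Gfap, Nes and Synm, called glial-type. Of these, 8 were found by symbol among the 30957 mRNAs of the expression table, and Nes had no row under its symbol. The set was chosen by the pattern of Nefl, which had been noted in these same libraries for low levels on D4 and high levels on D7. The values of Nefl are therefore given as a description with no test, and counts of changed genes cover the other members only.

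The rats were 1-month-old Sprague-Dawley animals, with 2 rats in each of 3 groups and 1 library per rat. The D4 and D7 groups were sampled 4 and 7 days after the left sciatic nerve was clamped with hemostatic forceps. The control rats were operated on without clamping according to the methods, whereas the sample labels call them normal controls. The letters a and b name the libraries of a group and mark different rats across groups.

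Intermediate filaments are rope-like polymers of the cytoskeleton, and cell types differ in the subunits they make. Neurofilaments are built from the light, medium and heavy subunits encoded by Nefl, Nefm and Nefh together with internexin alpha (Ina) or peripherin (Prph), and they fill axons and set their caliber. Their mRNAs are made mainly in neuronal cell bodies, which lie in the spinal cord and ganglia, outside the nerve trunk. Vimentin (Vim) is the filament of Schwann cells, fibroblasts, macrophages and endothelium, glial fibrillary acidic protein (Gfap) that of astrocytes and of non-myelinating and immature Schwann cells, nestin (Nes) that of progenitor cells, and synemin (Synm) a large subunit that joins vimentin or desmin filaments.

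Promoter windows from RefSeq were available for 6 of the 9 members, and not for Nefl, Nefm and Nefh. Those of 3 members whose levels took different courses are shown as the 250 bases before the RefSeq start, 5′ to 3′ in the direction of the gene, on build GRCr8, which differs from the Rnor_6.0 build named in the submitters' processing notes. Capitals mark matches on either strand to the TATA box, spelled TATAAA, to the CCAAT box, named for its letters, or to the GC box, spelled GGGCGG. The AP-1 motif, spelled TGANTCA, was searched as well. No match overlapped another in these 3 windows.
Vim, chr17:81577011-81577260, plus strand: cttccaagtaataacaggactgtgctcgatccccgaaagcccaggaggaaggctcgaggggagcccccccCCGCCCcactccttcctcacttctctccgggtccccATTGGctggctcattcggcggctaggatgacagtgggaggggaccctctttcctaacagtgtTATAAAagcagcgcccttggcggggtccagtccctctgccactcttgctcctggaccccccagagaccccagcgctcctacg
Prph, chr7:132097039-132097288, plus strand: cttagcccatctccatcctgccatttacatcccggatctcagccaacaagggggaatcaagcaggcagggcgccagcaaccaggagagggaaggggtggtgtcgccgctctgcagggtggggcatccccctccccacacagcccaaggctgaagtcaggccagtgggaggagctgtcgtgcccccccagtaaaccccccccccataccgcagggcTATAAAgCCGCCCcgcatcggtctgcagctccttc
Gfap, chr10:88361662-88361911, minus strand: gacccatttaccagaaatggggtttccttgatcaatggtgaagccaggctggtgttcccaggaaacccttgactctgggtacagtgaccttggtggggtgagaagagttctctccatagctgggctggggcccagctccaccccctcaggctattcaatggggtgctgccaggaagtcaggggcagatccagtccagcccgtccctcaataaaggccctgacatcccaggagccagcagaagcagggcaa
The TATA box match began 82 bases before the start in Vim and 35 bases before it in Prph, and these letters were not in the Gfap window. Of 33469 promoter windows of the same length, 12.9% held the TATA box letters, 34.0% those of the CCAAT box, 30.5% those of the GC box and 6.34% those of AP-1. None of the 6 member windows held the AP-1 letters. A match is a description of the letters and not evidence of a binding site.

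Total mRNA counts ran from 18727255 to 25350886 per library, and 15195 of 30957 mRNAs passed the low-count filter. Levels are given as deposited counts or as CPM, which are counts scaled to library size with edgeR's TMM factors. A gene was called changed when its adjusted p-value (Benjamini-Hochberg) was under 0.05 and its fold change at least 2. The p-values come from edgeR's quasi-likelihood test and rest on 2 rats per group. Myelin genes of Schwann cells were abundant in the control nerves, where the 7 listed summed to 102352 CPM in control a and 69649 CPM in control b. Of 18 listed neuron markers, 3 (Rbfox3, Chat and Pou4f1) had at most 3 counts in every library. Others of the list had more, some of them still few, such as Isl1 with 2 to 11 counts and Elavl3 with 2 to 13. Further genes of the list were well above that, such as Stmn2 with 18 to 182 counts and Uchl1 with 652 to 1924. Some libraries stood apart in the summed CPM of other tissues. Control b had a mural cell sum of 5253 against 604 to 1135 elsewhere, D4 a had a skeletal muscle sum of 85.2 against 7.13 to 51.9, and D7 a had an adipocyte sum of 6.81 against 148 to 1255.

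Among the 6 tested members other than Nefl, Vim was upregulated and Nefh downregulated in the control vs D4 comparison. In control vs D7, Nefm and Vim were upregulated, and Nefh and Prph downregulated. Between D4 and D7, Nefm alone of these 6 passed the test, and it was upregulated. Over all tested mRNAs, 11.2% were upregulated and 10.7% downregulated in control vs D4, 9.83% and 9.02% in control vs D7, and 1.68% and 0.494% from D4 to D7. The 2 comparisons with control share the same control rats, and the nerve is a bulk tissue, in which fewer cells of a type and less RNA per cell cannot be told apart.

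**Figure D1:**
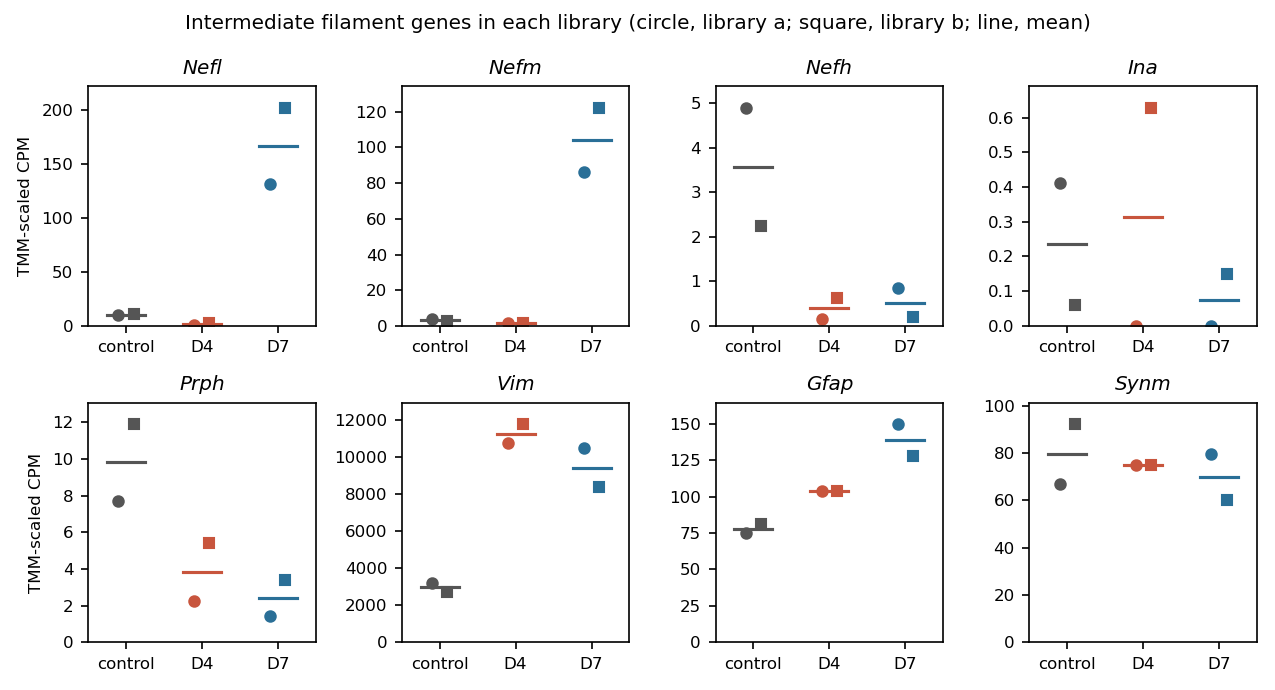
TMM-scaled CPM (vertical axes, each from 0) of the 8 members found, in the control, D4 and D7 groups, with a circle for library a, a square for library b and a line for the mean of the 2 rats. Nefl and Nefm are high in both D7 libraries alone, Vim is high in all 4 injured libraries, and the Synm groups overlap.

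Nefl, the light subunit on which the other neurofilament subunits assemble (chr15:44799334-44804574), had 188 counts in control a and 177 in control b. On D4 the counts were 20 and 67, and those of D7 were 2791 and 4075. Both D4 libraries lay below both controls, and both D7 libraries lay far above them. The mean level was 10.2 ± 0.699 CPM (SD, n = 2) in controls, 1.65 ± 1.17 on D4 and 166 ± 49.9 on D7. These levels correspond to log2 fold changes of -2.60 ± 0.45 (SE) in control vs D4 and 4.03 ± 0.41 in control vs D7. The D4 libraries differed from each other by more than the control libraries did, and the D4 value was -3.62 without D4 b and -2.03 without D4 a.

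Nefm, the medium subunit (chr15:44855310-44860604), had 75 and 48 counts in the controls, 38 and 51 on D4, and 1835 and 2469 on D7. Its level was 3.38 ± 0.685 CPM in controls, 1.72 ± 0.229 on D4 and 104 ± 25.5 on D7 (SD, n = 2 each). As with Nefl, the D7 libraries stood apart from the other 4. Nefm was upregulated 30.6-fold in control vs D7 (log2 fold change 4.94 ± 0.25, adjusted p = 0.000246) and 60.1-fold from D4 to D7 (5.91 ± 0.26, adjusted p = 0.00617). It had the tenth highest fold change among the 15195 mRNAs tested from D4 to D7. That change kept its size but not its call without D4 a (5.78, adjusted p = 0.138) or without D4 b (6.06, adjusted p = 0.0922). In control vs D4 the log2 fold change was -0.97 ± 0.27 with an adjusted p of 0.0293, which is short of 2-fold. Without control b it was -1.16 (adjusted p = 0.0384) and passed both thresholds.

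Nefh, the heavy subunit whose long side arms space neurofilaments apart (chr14:85181572-85191557), took another course. It had 95 and 37 counts in the controls, 4 and 17 on D4, and 18 and 4 on D7. All 4 injured libraries lay below both controls, and the D4 and D7 libraries overlapped. The log2 fold change was -3.13 ± 0.83 in control vs D4 (adjusted p = 0.0256) and -2.75 ± 0.83 in control vs D7 (adjusted p = 0.0432). Between D4 and D7 it was 0.38 ± 0.91 (adjusted p = 0.839). At these low counts the calls were not secure. The D4 call was lost without control a (adjusted p = 0.105), D4 a (0.126) or D4 b (0.0547), and the D7 call without control a (0.166), D4 a (0.0557), D4 b (0.0559) or D7 b (0.134). With a library left out, the log2 fold change ran from -4.39 to -2.46 in control vs D4 and from -4.11 to -2.07 in control vs D7. The D7 call was lost as well in the fit of those groups alone (adjusted p = 0.0515), without TMM factors (0.05002) and with the letters as a replicate block (0.0575). Neither call passed a test of the 2-fold change itself (0.110 on D4 and 0.203 on D7).

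Prph, a subunit of peripheral sensory and autonomic neurons (chr7:140742418-140746197), had 150 and 197 counts in the controls, 55 and 147 on D4, and 31 and 69 on D7. All 4 injured libraries lay below both controls in CPM, and library b was the higher of the pair in each group. Prph was downregulated 4.02-fold in control vs D7 (log2 fold change -2.01 ± 0.57, adjusted p = 0.0356). This call was lost without control b (log2 fold change -1.67) or without D7 a (-1.49), and the value was -2.74 without D7 b. Control b and D7 a were among the libraries that stood apart in other tissues, and a link to Prph was not tested. In control vs D4 the log2 fold change was -1.34 ± 0.54 (adjusted p = 0.0899), and -2.11 without D4 b. This D4 change was called with the letters as a replicate block (adjusted p = 0.0108), by DESeq2 (0.0486) and by edgeR's exact test (0.0275). Prph did not show the high D7 level of Nefl and Nefm, and its change from D4 to D7 was -0.67 ± 0.56 (adjusted p = 0.516).

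Ina, an internexin of developing and central neurons (chr1:266781617-266794431), had 8 and 1 counts in the controls, 0 and 17 on D4, and 0 and 3 on D7. It did not pass the low-count filter, and its groups overlapped.

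Neuron markers were read beside the Nefm result, and 11 of the 18 listed genes were tested. From D4 to D7 none was upregulated by edgeR's quasi-likelihood test, 1 (Uchl1) was downregulated, and at an unadjusted p under 0.05, 4 were higher and 2 lower. The same test called 1.68% of all tested mRNAs upregulated and 0.494% downregulated, so none upregulated among 11 genes says little. DESeq2 called 0 upregulated and edgeR's exact test 1. The summed CPM of the list was 135 to 166 in controls, 134 to 153 on D4 and 109 to 117 on D7. Stmn2, a tubulin-binding protein of growing axons, had 182 and 120 counts in controls, 18 and 106 on D4, and 43 and 38 on D7. Snap25, a synaptic SNARE protein, was downregulated in control vs D7 (log2 fold change -3.63 ± 0.78, adjusted p = 0.0147), a call that was lost without control a (-2.51, adjusted p = 0.0501) or D7 a (-3.17, adjusted p = 0.0794). The value was -4.25 without control b and -4.24 without D7 b.

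Myelin genes of Schwann cells moved with Nefl and Nefm from D4 to D7. Their summed CPM was 69649 to 102352 in controls, 3368 to 3849 on D4 and 10630 to 17031 on D7. All 7 were downregulated in control vs D4, and 5 of 7 were upregulated from D4 to D7, Mag by 5.92 ± 0.38 and Prx by 4.89 ± 0.31 in log2. The part of this change in the Nefm result was not tested. Unlike Nefm, no gene of this list was upregulated in control vs D7, where 4 of the 7 were downregulated. Among all tested mRNAs, 10.7% were downregulated in control vs D4 and 1.68% upregulated from D4 to D7. In control vs D7 the shares were 9.83% up and 9.02% down. The same zero for upregulated myelin genes was found at an unadjusted p under 0.05, with DESeq2 and with the exact test.

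**Figure D2:**
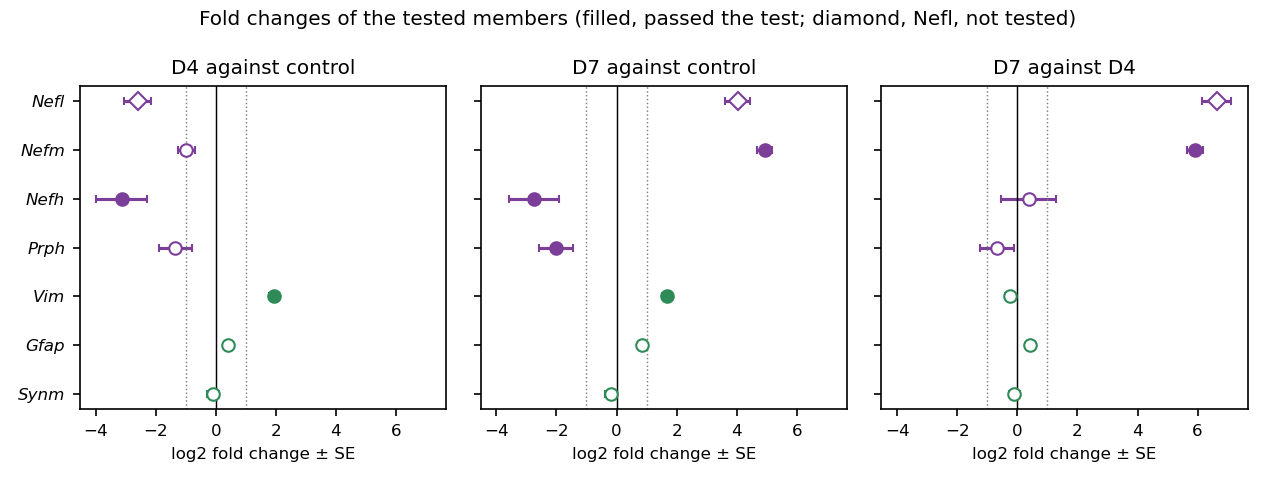
log2 fold changes with SE (horizontal axes) of the 7 members in the fit, for the 3 comparisons, with neuronal-type genes in purple and glial-type genes in green. Filled symbols passed both thresholds, dotted lines mark 2-fold, and Nefl (diamond) was not tested. Nefm lies near 5 and 6 in the D7 comparisons, while Nefh and Prph lie left of 0 in both comparisons with control.

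Vim (chr17:80882666-80891212) was by far the most abundant member. It had 62266 and 45282 counts in the controls, 261903 and 319047 on D4, and 223397 and 169923 on D7. Its level was 2969 ± 337 CPM in controls, 11268 ± 733 on D4 and 9448 ± 1472 on D7 (SD, n = 2 each). All injured libraries were above both controls, and D4 lay above D7. Vim was upregulated 3.80-fold in control vs D4 (log2 fold change 1.92 ± 0.17, adjusted p = 0.000453) and 3.18-fold in control vs D7 (1.67 ± 0.16, adjusted p = 0.00103). Both calls held in all 15 alternative fits. The difference from D4 to D7 was -0.25 ± 0.16 (adjusted p = 0.384). Vim is made by several cell types of the nerve, and their markers were read beside it. Macrophage markers were upregulated in 7 of 7 genes in control vs D4 and 6 of 7 in control vs D7, with a summed CPM of 186 to 212 in controls, 685 to 709 on D4 and 452 to 586 on D7. Repair Schwann cell markers such as Ngfr, Jun and Shh were upregulated in 6 of 10 genes in both comparisons, with sums of 361 to 367, 2624 to 2784 and 1725 to 1873. Another 2 of the 10, the adhesion molecules Ncam1 and Cdh2, were downregulated in control vs D4 (log2 fold changes -1.23 and -1.21). Fibroblast markers had sums of 28002 to 29414 in controls, 18018 to 19524 on D4 and 13919 to 15625 on D7. Col1a2, 1 of the 5 genes, had 0 counts in all 6 libraries, which is not read as low expression. Of the 4 tested fibroblast genes none was called in control vs D4 by edgeR's quasi-likelihood test, DESeq2 or the exact test, with 1 higher and 2 lower at an unadjusted p under 0.05, and Col1a1 alone was called in control vs D7, downward. Most of the sum was Col1a1, whereas Pdgfra had log2 fold changes of 0.68 and 0.49. Endothelial markers were downregulated in 2 of 4 tested genes in control vs D4 and 4 of 4 in control vs D7. The shares over all tested mRNAs were 11.2% up and 10.7% down in control vs D4, and 9.83% and 9.02% in control vs D7. The part of each cell type in the Vim result was not tested.

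Gfap (chr10:90990762-90999435) had 1451 and 1344 counts in the controls, 2532 and 2803 on D4, and 3185 and 2590 on D7. Its level was 77.9 ± 4.46 CPM in controls, 104 ± 0.269 on D4 and 139 ± 15.1 on D7, and no group overlapped another. The log2 fold change was 0.41 ± 0.11 in control vs D4 (adjusted p = 0.0233) and 0.83 ± 0.11 in control vs D7 (adjusted p = 0.00250). Both were short of 2-fold and were not called. Without TMM factors, which moved the median of all tested mRNAs in control vs D7 from 0.01 to 0.31, the D7 value was 1.13 (adjusted p = 0.000773) and was called. From D4 to D7 the difference was 0.42 ± 0.11 (adjusted p = 0.0808).

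Synm (chr1:128692112-128722048) had 1297 and 1529 counts in the controls, 1830 and 2031 on D4, and 1700 and 1218 on D7. Its groups overlapped in CPM in every comparison. The log2 fold changes were -0.08 ± 0.19 in control vs D4 and -0.18 ± 0.19 in control vs D7, with adjusted p-values of 0.755 and 0.491, and their sign was reversed without TMM factors. The fold change was therefore not distinguishable from 0 at this depth and number of rats.

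For Nes, 2 gene IDs described as nestin-like shared 1 placeholder name and had 0 to 10 counts per library. They were not matched to Nes, and near-identical copies can share reads, so no value is given for Nes.

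On the FPKM scale, which corrects for transcript length, levels can be compared between genes within a library. In the controls the order was Vim at 1395 ± 134 FPKM (SD, n = 2), Gfap at 25.3 ± 1.89, Prph at 4.90 ± 1.55, Synm at 4.68 ± 1.14, Nefl at 2.62 ± 0.226, Nefm at 0.964 ± 0.179, Nefh at 0.806 ± 0.414 and Ina at 0.0446 ± 0.0466. Prph and Synm overlapped between the rats, as did Nefm and Nefh. On D7 the order was Vim at 5448 ± 794, Gfap at 55.3 ± 5.47, Nefl at 52.6 ± 16.3, Nefm at 36.5 ± 9.29, Synm at 5.04 ± 0.945, Prph at 1.49 ± 0.862, Nefh at 0.145 ± 0.126 and Ina at 0.0175 ± 0.0247. Gfap and Nefl overlapped there, and so did Nefl and Nefm. Nefm was below Gfap in both D7 libraries, and both Nefl and Nefm were above Synm.

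The neuronal-type genes together took 0.559% and 0.755% of the summed FPKM of the 8 members in the controls, 0.0357% and 0.0742% on D4, and 1.17% and 2.17% on D7. This share was lowest in both D4 libraries and highest in both D7 libraries. These shares include Nefl and are a description. Per unit of neuronal-type FPKM there was 178 and 131 of glial-type FPKM in the controls, 2801 and 1347 on D4, and 84.2 and 45.2 on D7. Between the groups, the neuronal-type sum differed in its make-up as well. Prph was its largest part in the controls (44.6% and 59.1%) and on D4 (61.8% and 65.3%), and 1.22% and 1.92% of it on D7. Nefl and Nefm together filled the D7 sum, with 56.9% and 58.6% for Nefl and 41.5% and 39.4% for Nefm. The FPKM ratio of Nefl to Nefm was 2.26 and 3.32 in the controls, 0.474 and 1.18 on D4, and 1.37 and 1.49 on D7, so that the light subunit exceeded the medium one in 5 of 6 libraries. Vim made up 97.6% to 99.3% of the glial-type sum in every library.

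**Figure D3:**
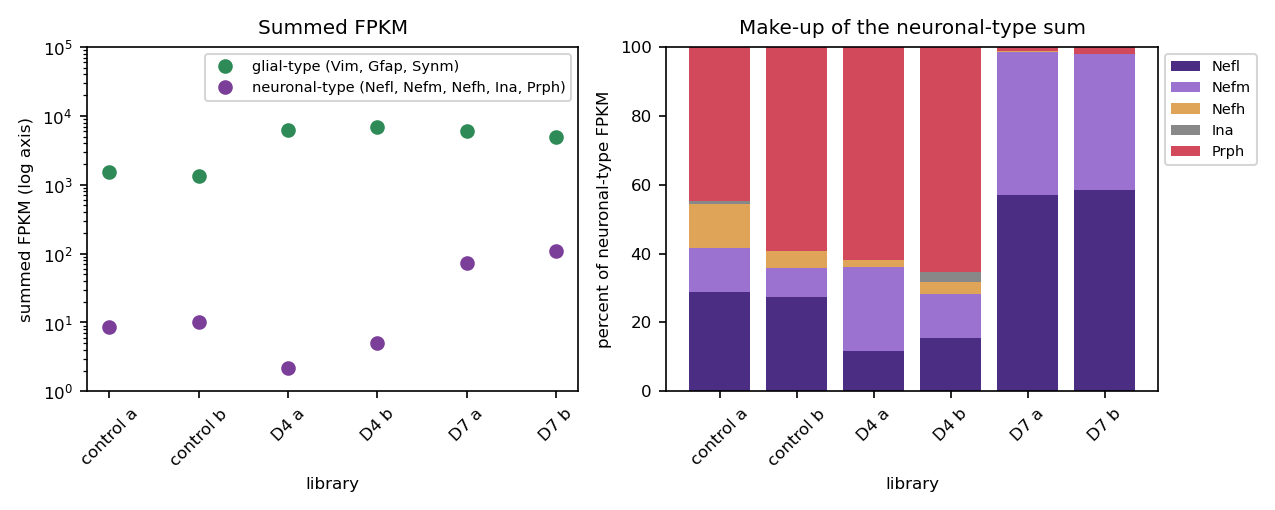
Left, the summed FPKM of glial-type and neuronal-type genes in each library on a log axis. Right, the percent of the neuronal-type FPKM that each gene took in each library. The neuronal-type sum is lowest in the D4 libraries and highest in the D7 libraries, where Nefl and Nefm replace Prph as its main parts.

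Nefl and Nefm are neighbours on chromosome 15, where their spans are 50.7 kb apart with 0 genes listed between them in the mRNA table. Within 1 Mb on either side, 9 of the other 18 listed genes were tested. None of the 9 was called from D4 to D7 by edgeR's quasi-likelihood test, and their log2 fold changes ran from -0.92 to 0.29, against 5.91 for Nefm. Only 1.68% of all tested mRNAs were upregulated and 0.494% downregulated from D4 to D7, so a lack of calls in 9 genes says little. In each comparison with control, 2 of the 9 were called, Cdca2 upward and Fam124a downward. This is near the share over all tested mRNAs, 11.2% up and 10.7% down on D4, and 9.83% and 9.02% on D7. Cdca2, a chromatin protein of dividing cells, had log2 fold changes of 3.06 in control vs D4 (adjusted p = 0.000213) and 2.38 in control vs D7 (adjusted p = 0.000643), higher on D4 than on D7.

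**Figure D4:**
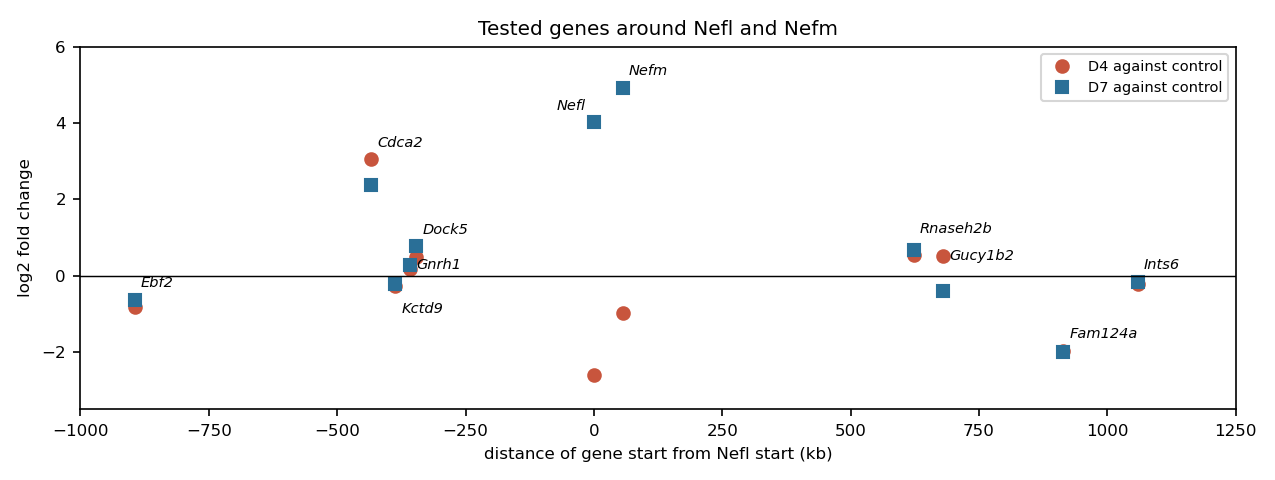
log2 fold changes (vertical axis) of the 11 tested genes around Nefl and Nefm against the distance of their starts from the Nefl start in kb, for control vs D4 (red circles) and control vs D7 (blue squares). Only Nefl and Nefm lie below 0 on D4 and above 4 on D7 among these 11 genes.

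The lncRNA table listed 15 transcripts overlapping a member or within 10 kb of one, and 10 of them passed the low-count filter. One of the 10, NONRATT010993.2, passed it through the D7 libraries alone and is given as a description with no test. Of the other 9, only NONRATT012636.2 was called by edgeR's quasi-likelihood test, upward in both comparisons with control, where 5.19% (D4) and 3% (D7) of all 14077 tested lncRNAs were upregulated. None of the 9 was called from D4 to D7 by this test, by DESeq2 or by edgeR's exact test, and none had an unadjusted p under 0.05 there, where 0.142% of all tested lncRNAs were upregulated. NONRATT010993.2 (chr15:44860929-44883166) began 325 bases past the end of the Nefm span. It had 0 counts in all control and D4 libraries, and 28 and 40 counts on D7. With the control libraries set to the floor of 3 counts each, it was at least 10.6-fold higher in control vs D7. From D4 to D7, with the same floor, it was at least 11.9-fold higher. NONRATT010995.2, which lies within the Nefl span (chr15:44801369-44802064), had 1 count in each control and D4 library and 7 and 5 on D7, and was not tested.

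NONRATT012636.2 (chr17:80887574-80891202), within the Vim span, had 90 and 68 counts in the controls, 391 and 439 on D4, and 354 and 251 on D7. It was upregulated 4.71-fold in control vs D4 (adjusted p = 0.00702) and 3.59-fold in control vs D7 (adjusted p = 0.0158). The D4 call was lost without D4 a or D4 b (adjusted p = 0.0507 and 0.0526), and the D7 call when any library but D7 b was left out (adjusted p = 0.0540 to 0.0775). NONRATT012637.2, in the same span, had a log2 fold change of 0.94 ± 0.20 in control vs D4 (adjusted p = 0.0418), short of 2-fold. Because the strand used in counting was not stated, reads of these transcripts and of Vim cannot be told apart. NONRATT010105.2 begins at the same position as the Nefh span (chr14:85181572-85184332) and had 8 and 35 counts in the controls, 4 and 13 on D4, and 15 and 4 on D7, so the low counts of Nefh carry the same limit. The other tested transcripts were NONRATT010105.2 at Nefh, NONRATT003884.2 at Ina, and NONRATT006108.2, NONRATT006109.2, NONRATT006110.2, NONRATT006111.2 and NONRATT006112.2 at Gfap. None of these 7 was called in any comparison. The 4 remaining untested transcripts, 1 near Nefl, 2 at Prph and 1 at Synm, had at most 8 counts in any library.

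The other intermediate filament genes were compared to see whether the changes ran through the family. Of 18 listed, 12 were tested, with a median log2 fold change of -0.28 in control vs D4 and -0.21 in control vs D7. Over all tested mRNAs the medians were -0.04 and 0.01. The 12 genes and their medians include Krt5, which passed the low-count filter through the controls alone. The B-type lamins of the nuclear envelope rose at both times. Lmnb1 had 182 and 215 counts in controls, 1829 and 2281 on D4, and 1185 and 1209 on D7, and its log2 fold changes were 2.84 ± 0.17 (adjusted p = 0.000183) and 2.37 ± 0.17 (adjusted p = 0.000456). Lmnb2 rose by 2.04 ± 0.25 and 1.76 ± 0.25. Lmna, the A-type lamin, had log2 fold changes of 0.94 ± 0.20 and 0.86 ± 0.20, short of 2-fold. The 4 proliferation markers were also upregulated at both times, by a median log2 fold change of 4.43 in control vs D4 and 3.70 in control vs D7, and their part in the lamin results was not tested. In these comparisons 11.2% and 9.83% of all tested mRNAs were upregulated.

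Among the keratins, which are epithelial filaments, Krt5 had 53 and 25 counts in controls, 0 and 0 on D4, and 1 and 0 on D7. It passed the low-count filter through the controls alone, so its difference is a description. With the injured libraries set to 3 counts each, it was at least 18.1-fold lower in control vs D4 and at least 14.6-fold lower in control vs D7. Krt19 had 725 and 184 counts in controls, 213 and 202 on D4, and 65 and 95 on D7, and fell by 2.65 ± 0.58 in control vs D7 (adjusted p = 0.0159), a call that was lost without D7 a (adjusted p = 0.0833). The Krt19 value was -1.52 without control a, which held most of the control counts, and -3.27 without control b. Des, the muscle filament desmin, had 1143 and 4612 counts in the controls and 978 to 1734 in the injured libraries, and was not called. The high Des count was in control b, the library with the high mural cell sum, and a link between the 2 was not tested. None of the 12 genes was called from D4 to D7 by edgeR's quasi-likelihood test or by DESeq2, 1 was lower at an unadjusted p under 0.05, and 1 was called by the exact test. With 1.68% of all tested mRNAs upregulated and 0.494% downregulated there, a lack of calls in 12 genes says little.

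Of 16 partners of intermediate filaments, 14 were tested. Myo5a was upregulated and Cryab, Dsp, Kif5a and Kif5c were downregulated in control vs D4, while in control vs D7 Trim2 was upregulated and Cryab, Dsp and Kif5a were downregulated. Among all tested mRNAs, 11.2% were upregulated and 10.7% downregulated in control vs D4, and 9.83% and 9.02% in control vs D7. The median log2 fold change over the 14 was -0.56 in control vs D4 and -0.38 in control vs D7. Cryab, the small heat shock protein that chaperones filament assembly, had 9203 and 5322 counts in controls, 698 and 788 on D4, and 1042 and 856 on D7. It fell by 3.78 ± 0.21 in control vs D4 (adjusted p = 0.000160) and by 3.12 ± 0.20 in control vs D7 (adjusted p = 0.000381).

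The kinesin heavy chain Kif5a, a neuron-specific motor that carries neurofilaments along axons, had 498 and 436 counts in controls, 133 and 229 on D4, and 288 and 220 on D7. It fell by 1.90 ± 0.23 in control vs D4 and by 1.09 ± 0.23 in control vs D7, the latter call being lost without D7 b (adjusted p = 0.0596). Kif5c, a related motor, fell by 1.07 ± 0.26 in control vs D4 (adjusted p = 0.0183), though not past 2-fold without control a or without D4 a (log2 fold changes -0.94 and -0.73). Its log2 fold change in control vs D7 was -0.80 ± 0.26 (adjusted p = 0.0535). Dsp, the desmosomal linker of filaments, fell by 1.75 ± 0.47 in control vs D4 and by 2.23 ± 0.49 in control vs D7. Its D4 call was lost without control b, D4 a or D4 b (adjusted p = 0.0870 to 0.141), and its D7 call without control b or D7 a (0.0543 and 0.0648), while the D7 value was -2.84 without D7 b. None of these 3 genes took the high D7 level of Nefl and Nefm.

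Trim2, a ubiquitin ligase that binds the neurofilament light subunit, had 906 and 632 counts in controls, 1509 and 1993 on D4, and 2628 and 2149 on D7. Its levels in CPM were ordered control, D4 and D7 with no overlap. It rose by 1.44 ± 0.15 in control vs D7 (adjusted p = 0.00128), and from D4 to D7 the log2 fold change was 0.76 ± 0.15 (adjusted p = 0.0483), short of 2-fold. Myo5a, a myosin that carries cargo and binds neurofilaments, rose by 1.18 ± 0.08 in control vs D4 (adjusted p = 0.000257), and its log2 fold change was 0.67 ± 0.08 in control vs D7. The linkers Plec, Dst and Macf1, and Cdk5, Cdk5r1, Kif5b and Hspb1 were not called by edgeR's quasi-likelihood test in either comparison with control, while edgeR's exact test called Hspb1 downregulated in control vs D4. None of the 14 partners was called from D4 to D7 by edgeR's quasi-likelihood test, DESeq2 or the exact test, and 3 were higher and 1 lower at an unadjusted p under 0.05. The quasi-likelihood test called 1.68% of all tested mRNAs upregulated and 0.494% downregulated there, so a lack of calls in 14 genes says little.

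**Figure D5:**
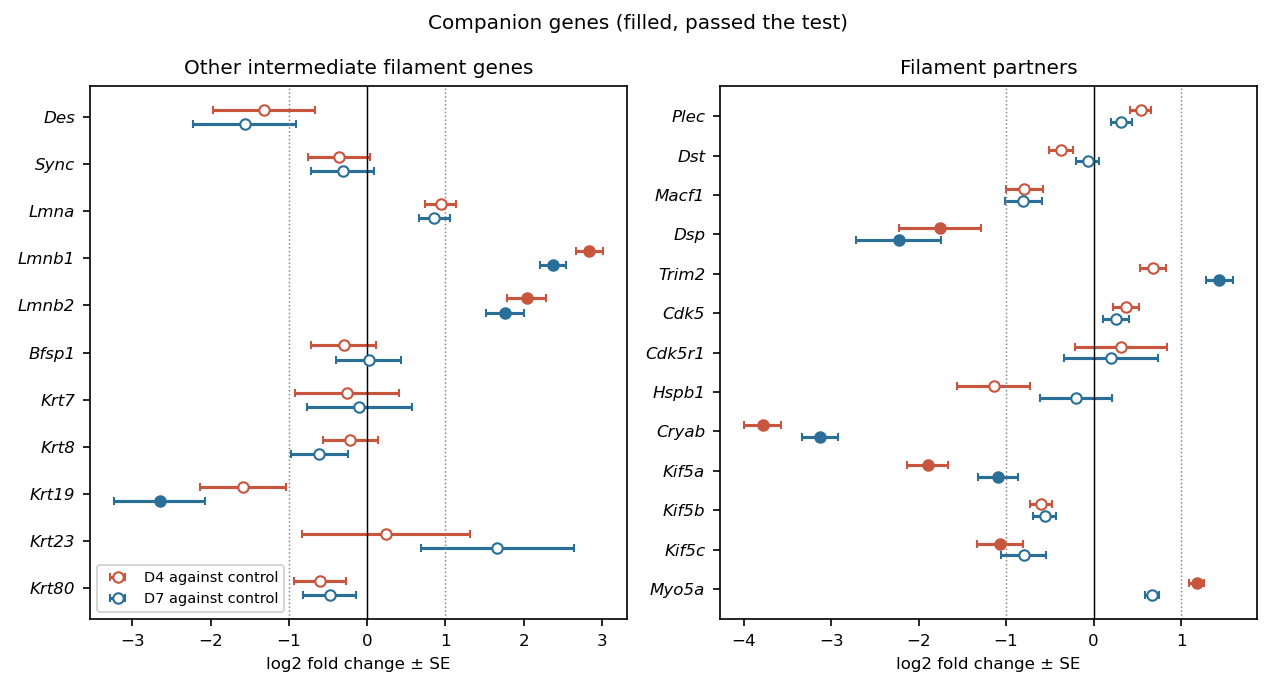
log2 fold changes with SE (horizontal axes) of tested other intermediate filament genes (left) and 13 tested filament partners (right) in control vs D4 (red) and control vs D7 (blue). Filled circles passed both thresholds and dotted lines mark 2-fold. Krt5 is left out because its injured libraries held at most 1 count. Lmnb1 lies furthest right in the left panel, and Cryab furthest left in the right panel.

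The genes whose course over the 6 libraries was most like that of each member were ranked by Pearson's r of log2 CPM. The points share libraries and groups, and the measure takes no account of the size of the change, so r is given as a description. For Nefl these were Smarcad1, Cxxc5, Srrm2, Ldlrad1 and Kdm5c, with r from 0.985 to 0.999. Their log2 CPM spanned 0.33 to 0.81 over the libraries, against 7.79 for Nefl, so that the shape matched at a small fraction of the size. For Nefm they were Smarce1, Thoc1, Alkbh6, LOC100364854 and Klhl9 (r from 0.988 to 0.996, span 0.37 to 2.11 against 6.21). Between the members themselves, Nefl and Nefm had r = 0.955, Nefm and Nefh -0.25, and Nefm and Prph -0.51.

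For Nefh the nearest genes were RGD1310712, Cftr, Timmdc1, Pde6d and Gpld1. For Prph they were Nos1, Synpo2l, Ephx3, Chrnb4 and RGD1559731, with r from 0.981 to 0.985. Nos1, the neuronal nitric oxide synthase, and Chrnb4, a nicotinic receptor subunit, spanned 6.38 and 5.03 in log2 CPM, against 2.95 for Prph. Synpo2l spanned 3.51, Ephx3 1.12 and RGD1559731 1.72. For Vim they were AABR07027811.1, Hist1h2bl, AABR07026359.1, Plekhm2 and Hn1l, for Gfap Dcbld1, Dbr1, Dact1, Bcl2l11 and Lgi3, and for Synm LOC100360573, Myg1, Rrp7a, LOC288978 and Idh2. Vim and Prph had r = -0.80 between them, and Vim and Gfap 0.78.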

How the data were processed

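After removal of ribosomal RNA reads, the authors aligned reads with HISAT2 2.0.4 and obtained fragment counts with StringTie 1.3.0. They deposited raw counts per gene and per lncRNA transcript, and FPKM values. The deposited mRNA FPKM equals the count divided by the mRNA total of its library and a fixed length per gene, with no TMM factor, so tests used the counts, and FPKM served to compare genes within libraries. Whether counting used the strand is not given in the sources used here. All 6 libraries entered 1 fit per table in edgeR 4.0.16 (filterByExpr, TMM, quasi-likelihood test, R 4.3.3), and p-values were adjusted by Benjamini-Hochberg over every tested feature. SE is the absolute log2 fold change over the square root of F. The fit was tested on simulated data. Tables and figures were made with Python 3.11.15, pandas 2.3.3 and matplotlib 3.10.9.

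Members and gene lists were chosen with earlier results of these data known. Named genes were all members, the companion genes past the threshold (at most 3 largest and 3 smallest per list and comparison), the 5 named genes most like each member by correlation of log2 CPM (prior count 2), tested lncRNAs within 10 kb of a member, and markers beside a result. Companion genes named as not called, the untested lncRNAs, the chromosome 15 neighbours, Stmn2, Isl1 and Elavl3 were named after their values were seen. Alternatives were DESeq2 1.42.0, edgeR's exact test, a block on the letters, fits limited to the pair of groups in question, unscaled library sizes (no TMM), no filter, at least 10 counts in every library, no fold threshold, a test of the 2-fold change itself, and leaving out each library. RT-qPCR and enrichment analyses were not analysed here. Values of 1 partner gene and 1 marker gene, which are counted in their lists, are not reported here.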

Additional observations from a re-analysis of the deposited data

Results flagged for a closer look

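Nefm was marked because its effect differed between the injured groups by a test of the difference itself. Its log2 fold change from D4 to D7 was 5.91, with an adjusted p of 0.00617 in edgeR's quasi-likelihood test, and both D7 libraries were above both D4 libraries. The call was not kept without D4 a or without D4 b.

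Nefl was marked because both D4 libraries lay below both controls and both D7 libraries above them. Its log2 difference between D7 and D4 was 6.63, and 7.65 without D4 b. The difference was not tested, since this course of Nefl had chosen the set. Groups of 2 libraries are too small for an outlier test, so no member's value was tested for a library far from its group.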

How the results depend on the processing

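Vim in control vs D4 and in control vs D7, and Nefm in control vs D7, kept direction and call in all 15 alternative fits, with log2 fold changes of 1.81 to 2.21, 1.53 to 1.97 and 4.66 to 5.23. Nefm from D4 to D7 kept its call in 13 of 15, Prph in control vs D7 in 12 of 15, and Nefh in 10 of 14 in control vs D4 and 6 of 14 in control vs D7. Members called in control vs D4 numbered 2, against 1 with at least 10 counts in every library, 1 with the test of the 2-fold change itself and 4 with no fold threshold. In control vs D7 there were 4, against 2 with the test of the 2-fold change itself. Leaving out each library in turn gave 1 to 3 members called in control vs D4, 3 in control vs D7 every time, and 0 to 1 from D4 to D7. The causes were not tested, except that Nefh did not pass the filter of at least 10 counts.

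Reversed signs occurred for members that were not called. Without TMM factors Synm was at 0.20 in control vs D4 and 0.11 in control vs D7. Leaving out each library in turn gave Synm -0.30 to 0.17 in control vs D4, -0.40 to 0.066 in control vs D7 and -0.33 to 0.087 from D4 to D7, where the signs were reversed without control b or D7 b. From D4 to D7 Nefh ran from -1.01 to 1.64, reversed without D4 a (-0.26) or D7 a, and Prph from -1.40 to 0.11, reversed without D4 b.

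Other intermediate filament genes called, with alternatives added after seeing the data, were 3 to 5 in control vs D4 when each library was left out, the 5 without control b, and 1 by the exact test from D4 to D7. Partners were 3 to 6 in control vs D4 in the same way, the 3 without D4 a, and the test of the 2-fold change itself gave 2 in control vs D4 and 2 in control vs D7. No fold threshold gave 10, 8 and 2 partners in control vs D4, control vs D7 and D4 to D7. These counts of other intermediate filament genes include Krt5, and those of lncRNAs in control vs D7 (2 as first fitted) include NONRATT010993.2, both of which passed the filter through 1 group. For lncRNAs at member loci, control vs D4 gave 2 without TMM factors and 0 to 1 with a library left out, the 0 without D4 a or D4 b. Control vs D7 gave 1 with the replicate block, 1 with DESeq2, 1 with overlap of the gene span only, and 0 to 1 with a library left out. Over 6 libraries Spearman's rho ties many genes, with 29 for Nefl, 19 for Nefm, 83 for Nefh and 80 for Gfap at or above the fifth value, so the 3, 1, 2 and 3 genes it shared with the 5 nearest by Pearson's r say nothing about stability. The number at or above the fifth value was 55 for Prph, 246 for Vim and 17 for Synm. Shares of summed TPM equal those of FPKM by construction.

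The letters were also used as a replicate block, although nothing says that they pair rats. The deviations of same-lettered libraries correlated at 0.0103 (control and D4), 0.195 (control and D7) and -0.134 (D4 and D7). With the block, 3 members were called in control vs D4, where Prph was added (adjusted p = 0.0108), 3 in control vs D7, where Nefh was not called (adjusted p = 0.0575), and 1 from D4 to D7. With the D4 letters exchanged, chosen after seeing the data, the counts were 2, 4 and 1. The members rest on 2 rats per group, and Nefh and Ina had under 20 counts in every injured library, which limits what can be seen of them.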
